A study of Mus musculus with 18 samples.

Results

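The 9 genes described here encode aminoacyl-tRNA synthetases that work inside mitochondria: *Lars2*, *Iars2*, *Vars2*, *Ears2*, *Aars2*, *Fars2*, *Hars2*, *Nars2* and *Pars2*. They were chosen by symbol, because the fitted level of *Lars2* in these data was 13.2-fold lower in RepB-/- than in WT mouse embryonic fibroblasts (MEFs), and the other 8 were set beside it as its family. All 9 were found among the 21959 genes of the MEF table and among the 51826 genes of the liver table, and all 9 passed the filter on low counts in both. *Lars2* lies on chromosome 9 (chr9:123195992-123291731 in the GRCm39 coordinates of the MEF table), *Iars2* on chromosome 1, *Pars2* on 4, *Ears2* and *Nars2* on 7, *Fars2* on 13, *Aars2* and *Vars2* on 17 and *Hars2* on 18, so none is X-linked. The MEF contrast of *Lars2* is part of the choice and is given as a description without a test.

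The study deleted repeat B, a C-rich tandem repeat of the long noncoding RNA *Xist*, from the mouse germline with CRISPR/Cas9, so every cell of a RepB-/- animal carries the deletion on each of its X chromosomes. mRNA libraries were made from primary MEFs and from liver, 3 RepB-/- and 3 WT libraries in each, and WT stands for the same material without the deletion. The MEF samples are labelled as a primary line with tail as the tissue, and the labels used here give no age for either material. The labels do not state whether the 3 libraries of a group came from separate cultures or animals, so p-values measure the spread between these libraries.

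Each mitochondrial synthetase is made in the cytosol from a nuclear gene, is imported, and joins one amino acid to the mitochondrial tRNAs that read its codons. The charged tRNAs are then used by the mitochondrial ribosome to make the few respiratory chain proteins encoded in mitochondrial DNA. Most amino acids have a separate enzyme for the cytosol, while glycine and lysine are charged in both compartments by enzymes from the same gene. Inherited loss of these enzymes is known from disorders of tissues with a high demand for respiration, and *LARS2* variants in humans are known from hearing loss with ovarian failure.

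The *Lars2* transcript carries a stretch that is not specific to the gene, and its sequence is shown because it bears on what a *Lars2* count can hold. In GENCODE M21 (GRCm38, forward strand) the reference transcript of *Lars2* is 3894 bases long and its 3′ UTR begins at base 2909. Bases 3163 to 3349, at chr9:123461933-123462119 in the 3′ UTR, aligned to the transcript of AA474408 with 80.1% identity over 196 aligned positions. Bases 3278 to 3349 aligned to the antisense gene *Gm15564* with 98.6% identity over 72 bases. A 30-base window of that alignment is given for both genes, with the base that differs in capitals.

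Lars2: ggaacgtgagctgggAttagaccgtcgtga

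Gm15564: ggaacgtgagctgggTttagaccgtcgtga

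The window spans bases 3315 to 3344 of the *Lars2* transcript and differs from *Gm15564* at 1 of 30 bases. Exact words of 30 bases taken from the stretch were found in transcripts of 2 of 55449 other genes, AA474408 and *Gm15564*, or 0.00361%. These letters are known from the large-subunit ribosomal RNA of the cytosol, whose sequence was not used here. Apart from *Gm15564*, which is itself on the list of ribosomal RNA genes, the best match among 363 transcripts annotated as ribosomal RNA or listed with it was 17 of 19 bases in the mitochondrial *mt-Rnr2*, with an E value of 1.7, a value that short chance matches reach.

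The MEF libraries held 20005541 to 20587556 counts in RepB-/- and 11540344 to 16347806 in WT, and the liver libraries held 37682201 to 51542709. Levels are given as CPM, counts scaled to a common library size of 1000000. The MEF libraries carried 13294 to 21726 CPM of the fibroblast markers and at most 2 counts of *Alb*, the albumin gene of hepatocytes, and the liver libraries carried 143231 to 213988 CPM of the hepatocyte markers. *Xist* is not listed in the MEF table used here, and a count over a whole gene does not show whether repeat B is present. In liver, RepB-/- replicate 2 stood apart: it held 4 counts of *Xist* and 4342 counts of Y-linked genes, against 14494 to 26345 counts of *Xist* and at most 1 Y-linked count in the other liver libraries. RepB-/- replicate 3 in liver held 19.3% of its counts on mitochondrial mRNAs, against 5.34% to 7.002% elsewhere. Both liver libraries numbered 1 stood apart too: their fibroblast markers summed to 1405 CPM in RepB-/- and 938 CPM in WT, against 270.3 to 489 CPM in the other 4, with the collagen gene *Col1a1* at 169.7 and 96.6 CPM against 6.64 to 28.5 CPM, and the kinase gene *Camk1d* was at 17.3 and 12.2 CPM against 62.9 to 97.01 CPM.

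In MEFs, *Lars2*, the leucyl-tRNA synthetase, was high in 2 of 6 libraries. Its counts were 1349, 1646 and 1867 in RepB-/- replicates 1 to 3 and 1378, 22548 and 29959 in WT replicates 1 to 3. Scaled to library size these were 68.8, 85.0 and 94.6 CPM in RepB-/- and 110.5, 1394 and 1779.6 CPM in WT. WT replicate 1 lay close to the RepB-/- libraries, and WT replicates 2 and 3 lay far above all others. The groups did not overlap, since WT replicate 1 was still above the highest RepB-/- library.

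The means were 82.8 ± 13.1 CPM in RepB-/- and 1095 ± 874 CPM in WT (SD, n = 3), so the SD of the WT libraries was close to their mean. The fitted log2 fold change was -3.73 with a standard error of 0.63. Leaving out a single library moved it between -4.26, without WT replicate 1, and -3.18, without WT replicate 3. Without WT replicates 2 and 3, a setting chosen after seeing the data, it was -0.39. Relative to WT replicate 1, *Lars2* was 12.6 times as high in WT replicate 2 and 16.1 times as high in WT replicate 3, while WT replicate 1 was 1.33 times the RepB-/- mean. In WT replicates 1 to 3 the endothelial and epithelial markers summed to 26.6, 25.2 and 27.0 CPM, against 13.3 to 20.999 CPM in RepB-/-. The blood markers summed to 18.2, 11.3 and 12.7 CPM in WT and 11.2 to 13.3 CPM in RepB-/-. These sums hold markers that went opposite ways in WT replicates 1 to 3. *Krt14* was at 0.56, 1.92 and 2.26 CPM and *Adgre1* at 0.48, 1.30 and 1.13 CPM. *Krt18* was at 1.84, 0.43 and 0.53 CPM and *Cd68* at 16.5, 8.60 and 10.8 CPM. The fibroblast markers summed to 13294, 17535 and 17155 CPM in WT replicates 1 to 3. The part of cell types in the split was not tested.

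**Figure D1:**
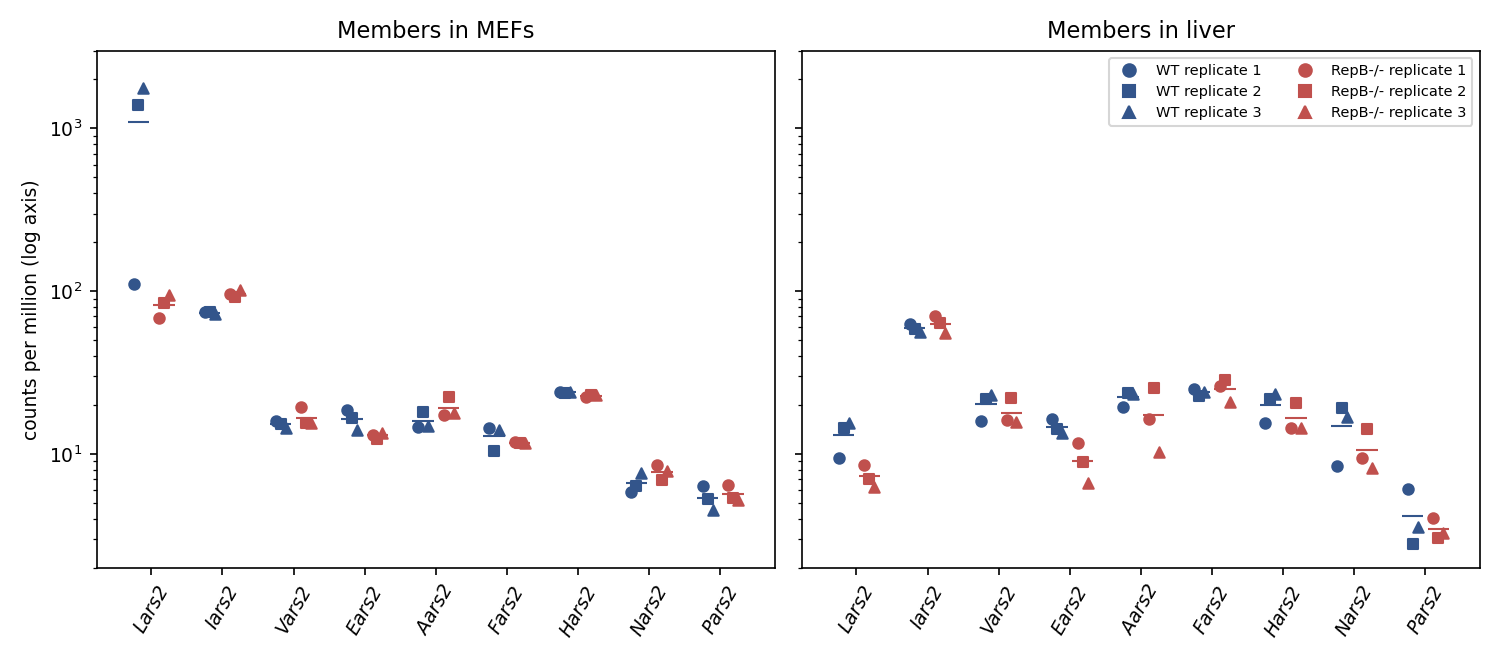
CPM of the 9 mitochondrial synthetases in MEFs (left) and liver (right), on a log axis, with a point for each library and a short line at the mean of each group of 3. *Lars2* in WT MEF replicates 2 and 3 lies at 1394 and 1779.6 CPM, above WT replicate 1 at 110.5 CPM and above all RepB-/- libraries, and the other 8 genes show no such split.

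No other tested gene of the MEF table varied as much among the WT libraries. *Lars2* was chosen for a difference that these same WT values make, so its rank is a description and not a test. The range of *Lars2* over the 3 WT libraries was 4.01 on the log2 CPM scale, rank 1 of 13306 genes tested, against a median of 0.28. The next gene was *F7*, coagulation factor VII, at 3.15. Among the 8948 genes with at least 10 CPM in the WT mean, the next gene was the histone gene *H3c6*, with a range of 1.503. In the RepB-/- libraries the range of *Lars2* was 0.46, rank 2565, against a median of 0.20.

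**Figure D2:**
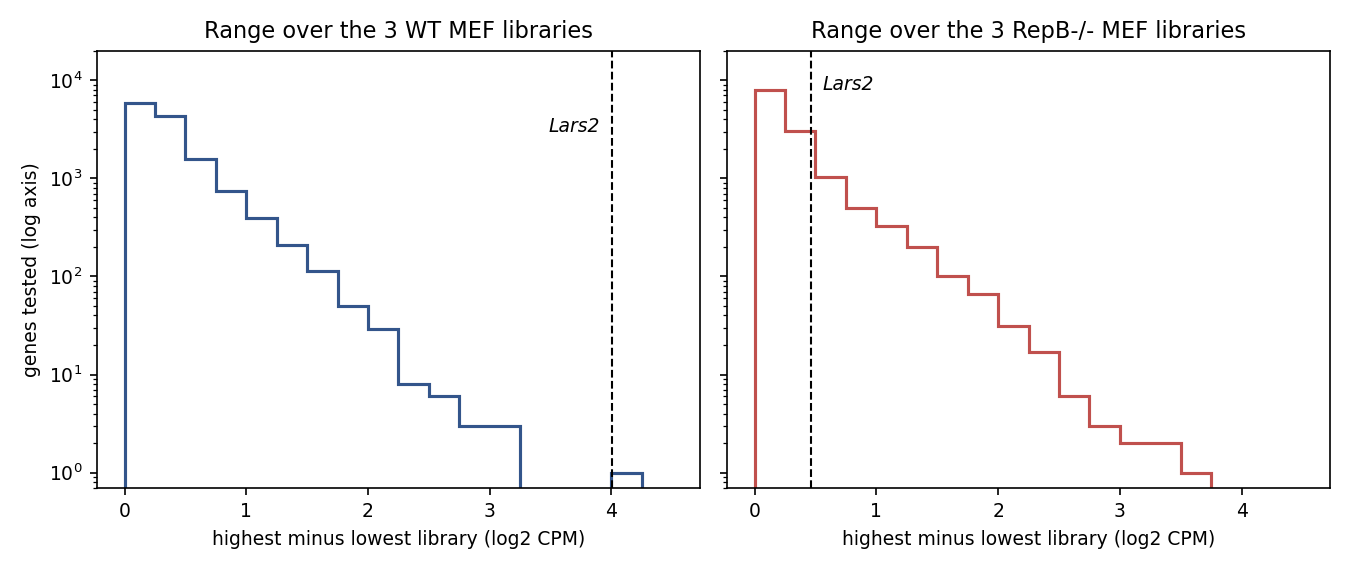
Number of tested genes (log axis) by the difference between the highest and the lowest library in log2 CPM, over the 3 WT (left) and the 3 RepB-/- (right) MEF libraries, with a dashed line at *Lars2*. *Lars2* is alone in the highest WT bin at 4.01, and in RepB-/- it lies within the bulk of genes at 0.46.

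The share of the library that *Lars2* took shows the same split. It made up 0.0119% of the counts in WT replicate 1, 0.140% in replicate 2 and 0.183% in replicate 3, and between 0.00658% and 0.00907% in RepB-/-. Ranked by count, it was gene 63 in WT replicate 2 and gene 39 in WT replicate 3. In WT replicate 1 it was gene 1800, and in RepB-/- it was gene 2237 to 3135. In WT replicates 2 and 3 *Lars2* was thus counted among the most abundant mRNAs.

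The other 8 synthetases together did not show the split. Their summed level was 194, 189 and 197 CPM in RepB-/- replicates 1 to 3 and 174, 171 and 166 CPM in WT replicates 1 to 3. *Lars2* therefore made up 26.1%, 31.0% and 32.5% of the counts of the 9 genes in RepB-/- and 38.8%, 89.1% and 91.5% in WT. The highest WT library was 1.01 to 1.40 times the lowest for each of the other 8 genes and 16.1 times for *Lars2*. Among the 161 tested genes of the wider pathway lists described further on, the same ratio reached 1.70, for *Ddit3*.

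Levels per length were taken as reads per kilobase of exon scaled to library size (RPKM). The length counts all annotated exon bases, 11089 for *Lars2* beside 3894 in its reference transcript, so the order depends on that length. By this measure *Lars2* stood above its family only in WT MEFs. There it was at 98.7 ± 78.8 RPKM (SD, n = 3), with a lowest library of 9.96, above *Iars2* at 8.30 and *Hars2* at 5.61. *Aars2* at 3.34, *Ears2* at 3.19 and *Vars2* at 2.79 followed, and neighbours among these 3 overlapped. *Fars2* at 2.26 and *Pars2* at 1.74 overlapped too, and *Nars2* was lowest at 0.95. In RepB-/- MEFs *Iars2* led at 10.9 RPKM, *Lars2* followed at 7.47 ± 1.18 (SD, n = 3), and *Hars2* was at 5.34, with no overlap between neighbours down to *Fars2* and *Pars2*.

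The other class I enzymes of the 9 share the catalytic fold of *Lars2*. Among them the isoleucyl enzyme *Iars2* was the only one with higher levels in every RepB-/- MEF library. It was at 95.6, 91.8 and 102 CPM in RepB-/- and 74.5, 74.4 and 72.3 CPM in WT, a fitted log2 fold change of 0.39 with a standard error of 0.07. The valyl enzyme *Vars2* was at 19.3, 15.4 and 15.5 CPM against 15.9, 15.3 and 14.6 CPM in WT, a log2 fold change of 0.14 (SE 0.12). Its groups overlapped. The glutamyl enzyme *Ears2* was at 13.1, 12.5 and 13.4 CPM against 18.7, 16.6 and 14.0 CPM, a log2 fold change of -0.33 (SE 0.13). Its RepB-/- libraries lay below the WT libraries, by a small margin to WT replicate 3.

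The class II enzymes of the 9 differed little between the genotypes in MEFs. The alanyl enzyme *Aars2* had a log2 fold change of 0.26 (SE 0.13), the asparaginyl *Nars2* of 0.23 (SE 0.17) and the prolyl *Pars2* of 0.09 (SE 0.19). The phenylalanyl *Fars2* had -0.14 (SE 0.14), and these 4 overlapped between genotypes. The histidyl *Hars2* was at 22.3, 23.1 and 23.2 CPM in RepB-/- and 24.1, 23.9 and 24.0 CPM in WT, a log2 fold change of -0.07 (SE 0.09). Its groups did not overlap, because the WT libraries were within 1.01 times of each other.

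As a description of the contrast that chose them, 2 of the 9 lay past an adjusted p of 0.05 in the fit over all genes in MEFs, *Lars2* lower and *Iars2* higher. The background in this contrast was wide, with 39.1% of all tested genes called, 19.7% lower and 19.4% higher. Every RepB-/- library was below every WT library for 3 of the 9 (*Lars2*, *Ears2* and *Hars2*) and above for 1 (*Iars2*), against 25.8% and 26.4% of all tested genes. Since this contrast chose the genes, nothing is read from these shares. The median log2 fold change of the 9 was 0.09, beside 0.00030 over all tested genes.

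In liver, *Lars2* was low in both genotypes and showed no library of the kind seen in WT MEFs. Its counts were 431, 355 and 216 in RepB-/- replicates 1 to 3 and 423, 560 and 735 in WT replicates 1 to 3. These were 8.51, 7.05 and 6.30 CPM in RepB-/- and 9.44, 14.5 and 15.5 CPM in WT. Every RepB-/- library was below every WT library, and the margin between RepB-/- replicate 1 and WT replicate 1 was small.

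The liver contrast did not choose the genes and was tested. *Lars2* was at 7.29 ± 1.12 CPM in RepB-/- and 13.1 ± 3.25 CPM in WT (SD, n = 3), a log2 fold change of -0.85 with a standard error of 0.27. Its unadjusted p was 0.0170 and its adjusted p was 1.00 over the 16080 genes tested by edgeR's quasi-likelihood test. With the replicate number as a block, the log2 fold change was -0.83 and the adjusted p 0.706. Leaving out single libraries gave -1.04 to -0.72, and the block fit without both libraries of replicate 2, which holds the library with Y-linked counts, gave -0.72. WT replicate 1, the WT library with the least *Lars2*, is in the pair with high fibroblast markers, and the block fit without that pair, chosen after seeing the data, gave -1.17 with an adjusted p of 0.338 by edgeR. The part of the fibroblast markers in the result was not tested. The 6 blood and immune markers summed to 2979, 1478 and 980.1 CPM in RepB-/- replicates 1 to 3 and to 1169, 247 and 192 CPM in WT replicates 1 to 3. RepB-/- replicate 3 was below WT replicate 1. From replicate 1 to 3 the sum fell in both groups, while *Lars2* fell in RepB-/- and rose in WT. Most of that sum was haemoglobin mRNA, with 66964, 35502 and 14771 counts of *Hbb-bs* in RepB-/- replicates 1 to 3 and 22318, 3994 and 3653 in WT replicates 1 to 3, and none of the 6 was at 0 in any library. The 7 endothelial and epithelial markers summed to 303 to 475 CPM in RepB-/- and 466 to 1042 CPM in WT, with the keratins *Krt5* at 0 in all and *Krt14* at 0 in 5 of 6 libraries. The part of the blood, endothelial and epithelial markers was not tested either. In bulk liver, fewer cells of a type and less RNA per cell cannot be told apart.

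**Figure D3:**
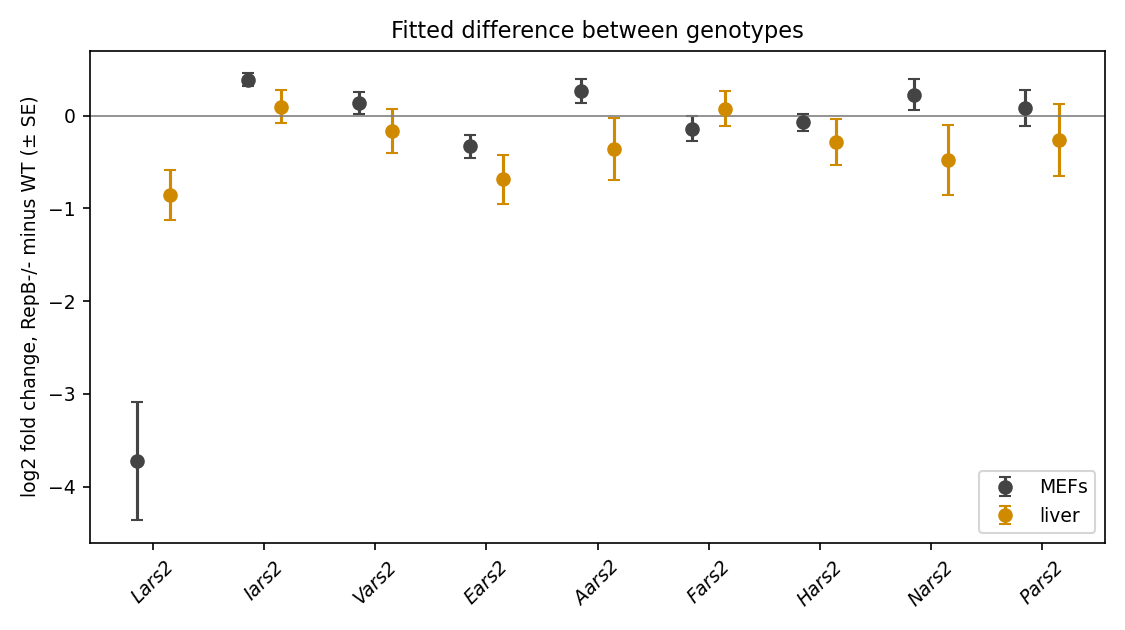
Fitted log2 fold change of RepB-/- against WT with its standard error for the 9 mitochondrial synthetases in MEFs and liver. *Lars2* in MEFs lies at -3.73, and the other values lie between -0.85 and 0.39.

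The liver values of the other 8 genes lay closer to 0. *Ears2* was at 11.7, 8.98 and 6.65 CPM in RepB-/- and 16.5, 14.2 and 13.4 CPM in WT, with no overlap, a log2 fold change of -0.69 (SE 0.26) and an adjusted p of 1.00 by edgeR. The remaining 7 overlapped between genotypes, with log2 fold changes from -0.48 for *Nars2* (SE 0.37) to 0.10 for *Iars2* (SE 0.18). *Aars2* had -0.36 (SE 0.33), *Hars2* -0.28 (SE 0.25), *Pars2* -0.26 (SE 0.39), *Vars2* -0.17 (SE 0.23) and *Fars2* 0.08 (SE 0.19). None of the 9 passed at an adjusted p under 0.05 in edgeR or in DESeq2, and 2 of the 9, *Lars2* and *Ears2*, had an unadjusted p under 0.05.

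Few genes passed at all in liver, 0.0373% of those tested, or 6 genes by edgeR, 80 by DESeq2 and 502 at an unadjusted p under 0.05. The number by edgeR was 4 without WT replicate 1, 0 without any other single library, 0 without a filter, 8 with the replicate block and 47 with the block and without both libraries of replicate 1. Every RepB-/- library was lower than every WT library for 2 of the 9 genes, against 4.66% of all tested genes, and higher for 0, against 3.38%. A log2 fold change below 0 was found for 7 of the 9. Their median was -0.28, beside 0.012 over all tested genes. The biological coefficient of variation was 51.2% in liver, or 33.7% with the replicate block, and 9.06% in MEFs.

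Because a ratio within a library does not depend on its depth, the share of *Lars2* among the counts of the 9 genes was also compared in liver. It was 4.79%, 3.64% and 4.46% in RepB-/- and 5.27%, 7.28% and 7.78% in WT. The means were 4.30% ± 0.60 and 6.78% ± 1.33 (SD, n = 3), a difference of -2.48 percentage points with a two-sided exact permutation p of 0.1, the smallest that 3 libraries against 3 allow. A pairing by number is not established for these libraries. Paired in that way, the share was lower in RepB-/- in 3 of 3 pairs, by 0.47, 3.64 and 3.32 percentage points. The two-sided exact p over sign changes was 0.25, the smallest that 3 pairs allow. With the other mitochondrial synthetases added to the sum, the difference was -1.58 percentage points, with the same exact p of 0.1. By its group mean *Lars2* was the lowest of the 9 per length in liver, at 1.19 RPKM in WT and 0.66 RPKM in RepB-/-, where *Iars2* led at 6.67 and 7.12 RPKM. In WT its libraries overlapped those of *Pars2*, which was the lower gene in WT replicates 2 and 3, and in RepB-/- there was no overlap. In mean CPM, which does not use length, *Pars2* was below *Lars2* in liver, at 4.15 CPM in WT and 3.46 CPM in RepB-/-. The RPKM order rests on 11089 exon bases for *Lars2*, beside 3894 in its reference transcript.

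**Figure D4:**
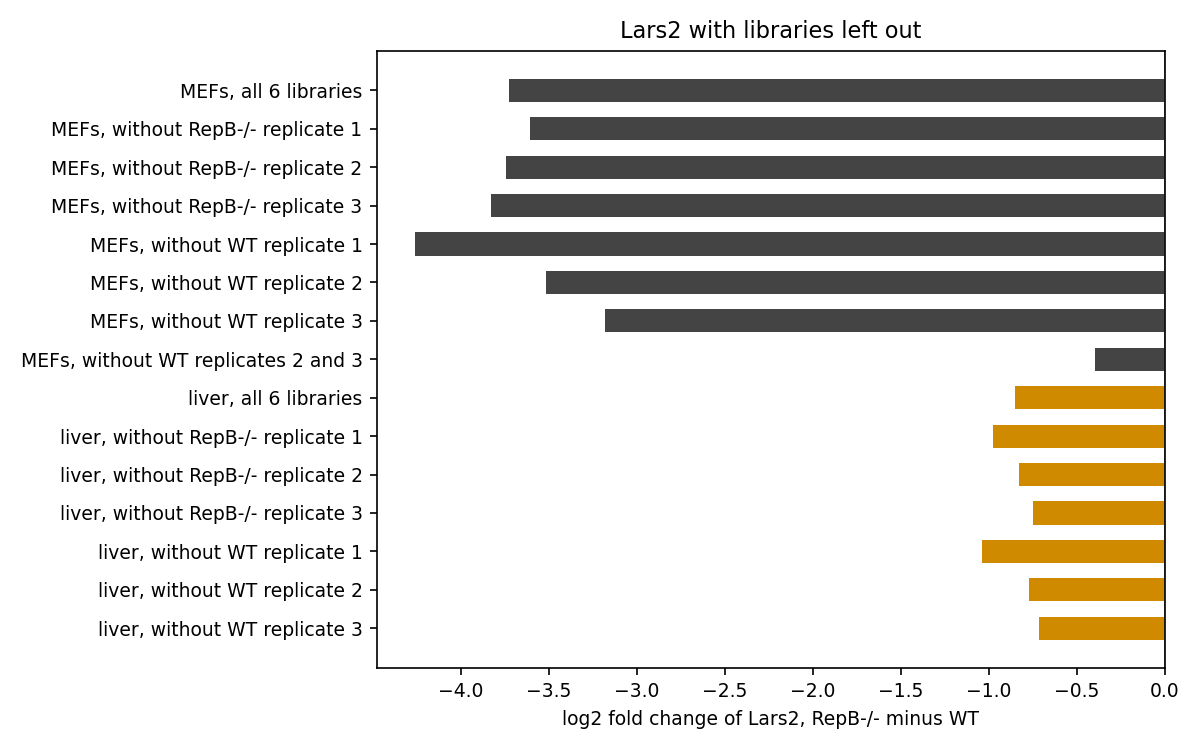
Fitted log2 fold change of *Lars2*, RepB-/- minus WT, with all 6 libraries and with libraries left out, in MEFs (dark bars) and liver (light bars). Each single omission leaves the MEF value between -4.26 and -3.18, and leaving out WT replicates 2 and 3 together gives -0.39.

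Ribosomal RNA reads were looked at through every listed gene that could hold them. The MEF table lists none of the ribosomal RNA genes and neither AA474408 nor *Gm15564*, so no count of them stands beside *Lars2* in MEFs, and the part of ribosomal RNA reads in the MEF split was not tested. The table does hold 5 genes reported to follow such reads in other data. *Cdk8*, a kinase of the mediator complex, had a log2 fold change of 0.05, *Zc3h7a* of -0.09 and *Cmss1* of 0.10, with overlap between genotypes. From here on, rises and falls are log2 fold changes of genes past the threshold. *Camk1d* fell by 0.85 (SE 0.20, adjusted p 0.00492 by edgeR), at 13.2, 8.10 and 9.68 CPM in WT, and *Filip1l* rose by 0.87 (SE 0.09, adjusted p 1.28e-05 by edgeR), at 23.3, 26.7 and 26.1 CPM in WT. None of the 5 had the *Lars2* split among the WT libraries. Whether these 5 genes hold ribosomal RNA reads in this table was not tested, so nothing is read from this.

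The liver table lists 187 ribosomal RNA genes. *Gm42418*, which overlaps the locus of the 45S precursor, had 262, 373 and 122 counts in RepB-/- and 127, 107 and 193 in WT, and *Gm26917* had 292, 596 and 248 against 305, 184 and 397. AY036118 had 8031, 7066 and 5015 counts in RepB-/- and 5688, 8 and 5124 in WT. Levels of AY036118 differed widely from library to library, with WT replicate 2 near 0, where *Lars2* held 560 counts. Only AA474408 and *Gm15564* shared a 30-base word with the *Lars2* stretch, so counts of the other genes do not show reads from it. The part of ribosomal RNA reads in the liver counts of *Lars2* was not tested. AA474408 held 14 to 24 counts in each liver library and *Gm15564* held 0.

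The ribosomal RNAs of the mitochondrion varied as well. The large-subunit *mt-Rnr2* had 17617, 15892 and 13177 counts in RepB-/- and 17638, 4408 and 6394 in WT, and the small-subunit *mt-Rnr1* had 12915, 11773 and 2347 against 19334, 4697 and 5576. WT replicates 2 and 3, the liver libraries with the most *Lars2*, had less *mt-Rnr2* than the other 4. A link between the 2 genes was not tested. None of these 5 genes passed in liver, with an adjusted p of 1.00 by edgeR for each.

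**Figure D5:**
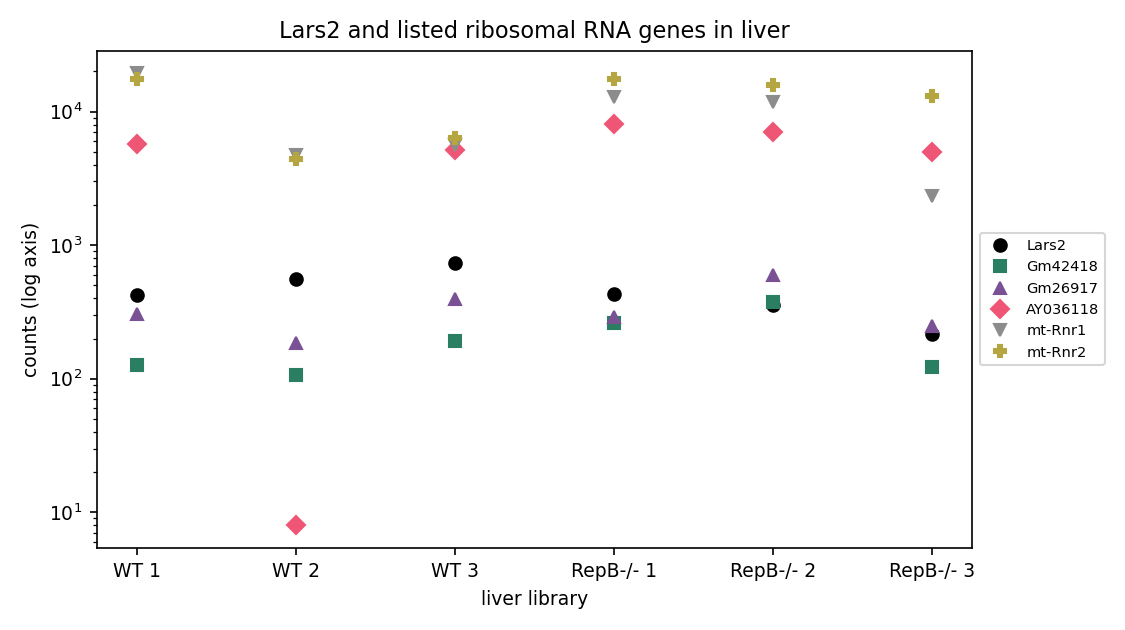
Counts (log axis) of *Lars2* and of 5 listed ribosomal RNA genes in each liver library. *Lars2* lies between 216 and 735 counts in all 6 libraries, while AY036118 ranges from 8 to 8031.

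The genes next to *Lars2* on chromosome 9 did not share its split in MEFs. *Limd1*, which begins 16.04 kb after *Lars2*, was at 81.3, 68.6 and 75.9 CPM in WT and had a log2 fold change of -0.13 (SE 0.08). *Sacm1l*, which encodes a phosphoinositide phosphatase and lies 67.1 kb after *Lars2*, was at 31.7, 31.8 and 31.7 CPM in WT and rose by 0.29 (SE 0.09, adjusted p 0.0155 by edgeR). *Tmem158*, 106 kb before *Lars2*, had a log2 fold change of -0.43 (SE 0.22, adjusted p 0.135 by edgeR). *Cdcp1*, 151 kb before, had at most 10 counts in a library and was not tested. In liver none of these neighbours passed, with log2 fold changes of 0.78 for *Limd1*, -0.12 for *Sacm1l*, 0.45 for *Tmem158* and -1.57 for *Cdcp1* (adjusted p 1.00 by edgeR for each).

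Genes whose pattern lay nearest to that of *Lars2* were sought by the root mean square difference of centred log2 CPM over the 6 libraries of a table. In MEFs the nearest were *Slc13a5*, a citrate transporter, at 1.01, *Sh3bgr* at 1.09, *Gabrb1* and *Dnai4*, at 1.10 and 1.11, and *Upp2* at 1.11, against a median of 1.98 over 13305 genes. All 5 were sparse, with 11 to 32 counts in WT replicate 1 and 21 to 101 in WT replicates 2 and 3. The lower of WT replicates 2 and 3 exceeded the highest of the other 4 libraries by 3.66 on the log2 CPM scale for *Lars2*, and by 1.42 for the next gene, *Sh3bgr*, a measure chosen after the values were seen. The other 8 synthetases ranked between 4207 (*Ears2*) and 11526 (*Iars2*) in this order.

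In liver the nearest genes were *Fdxacb1* at 0.085, *Cgn*, which encodes the tight junction protein cingulin, at 0.12, and *D630044L22Rik*, *Tgm1* and *Luc7l* at 0.12 to 0.13, against a median of 0.64 over 16079 genes. *Fdxacb1* was at 1.60, 1.55 and 1.17 CPM in RepB-/- and 1.96, 3.10 and 3.08 CPM in WT. The other synthetases ranked between 538 (*Ears2*) and 7680 (*Pars2*). The nearest genes in MEFs and in liver had no name in common.

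Set against the rest of the charging machinery in MEFs, *Lars2* had no counterpart of its size. The counts below stand beside 19.4% of all tested genes that rose and 19.7% that fell. Of the 8 other mitochondrial synthetases, 1 rose and 0 fell: the arginyl enzyme *Rars2*, with a log2 fold change of 0.40 (SE 0.12, adjusted p 0.0201 by edgeR). The median of these 8 was -0.03. Of the 2 enzymes that serve both compartments, the glycyl enzyme *Gars* rose, by 0.23 (SE 0.08, adjusted p 0.0391 by edgeR). Of the 4 genes of the amidotransferase that makes glutaminyl-tRNA in mitochondria and of the formylase of the initiator tRNA, the subunit gene *Gatb* rose by 0.94 (SE 0.11, adjusted p 2.70e-05 by edgeR).

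The cytosolic synthetases moved in both directions in MEFs, as the tested genes did as a whole (19.4% rose and 19.7% fell). Of 21 tested genes in this list, which also holds *Eef1e1*, 6 rose and 4 fell, with a median of -0.0018. The aspartyl enzyme *Dars* rose by 0.45 and the glutamyl-prolyl enzyme *Eprs* by 0.36, while the tryptophanyl enzyme *Wars* fell by 0.35 and *Eef1e1*, a scaffold protein of the multi-synthetase complex, fell by 0.28. These are log2 fold changes with standard errors of 0.07 to 0.09.

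The machinery that uses the charged tRNAs had rises and falls too, beside the 19.4% and 19.7% of all tested genes. Of 11 mitochondrial translation factors 2 rose and 1 fell, with *Guf1*, a ribosomal GTPase, at 0.59, the membrane insertase *Oxa1l* at 0.34 and the elongation factor *Tsfm* at -0.44. Of 15 genes that process or modify mitochondrial tRNAs and rRNAs 2 rose and 4 fell, with the tRNA methyltransferases *Nsun3* at 0.54 and *Trmt5* at 0.43, the rRNA methyltransferase *Mrm1* at -0.53 and *Prorp*, the nuclease of mitochondrial RNase P, at -0.45. Of 77 mitochondrial ribosomal proteins 6 rose and 6 fell, from *Mrps12* at 0.61 and *Mrpl17* at 0.41 to *Mrpl38* at -0.64 and *Mrps10* at -0.85. With single libraries left out, the ribosomal protein genes that rose numbered 2 to 8, with 2 without RepB-/- replicate 2 or WT replicate 3 and 8 without WT replicate 2, and those that fell numbered 3 to 6, while DESeq2 called 7 in all. The products of this machinery, the 10 tested mRNAs of the mitochondrial genome, gave 1 gene that rose, *mt-Cytb* at 0.38, and 1 that fell, *mt-Co1* at -0.42.

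ATF4 is the transcription factor of the integrated stress response, which is known to follow loss of mitochondrial translation. Of 13 of its targets tested, 2 rose and 4 fell, beside 19.4% and 19.7% of all tested genes. The folate enzymes *Aldh1l2* and *Mthfd2* rose by 0.70 and 0.33. The transcription factor gene *Ddit3* fell by 1.52, at 15.6, 15.96 and 18.2 CPM in RepB-/- and 65.6, 38.5 and 39.3 CPM in WT, and *Sesn2* fell by 0.54. WT replicate 1 was the highest WT library for *Ddit3* and *Sesn2*, whereas it was the lowest for *Lars2*.

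In all, 42 of 161 genes in these lists passed in MEFs, 22 higher and 20 lower, beside the 39.1% called over all genes. Without RepB-/- replicate 2 the number was 23, and 8 of the 24 genes named from the lists lost their call there: *Rars2*, *Gars*, *Eef1e1*, *Tsfm*, *Nsun3*, *Trmt5*, *Mrm1* and *Prorp*. The median log2 fold change over the lists was 0.0093, beside 0.00030 over all tested genes.

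In liver none of the 166 tested genes of these lists passed in edgeR or in DESeq2, and 4 had an unadjusted p under 0.05. Their median log2 fold change was -0.11, beside 0.012 over all tested genes. All were measured in the same 6 libraries, so genes below 0 are not independent, and no result is read from their counts. The 8 other mitochondrial synthetases were all below 0, with a median log2 fold change of -0.25, from -0.58 for *Rars2* (SE 0.32) to -0.02 for *Sars2* (SE 0.21). *Gars* was at -0.09 and *Kars* at -0.15. Of the 21 genes in the cytosolic synthetase list 20 were below 0, with a median of -0.25. The list ran from -0.61 for *Tars* (SE 0.62) to 0.08 for *Sars* (SE 0.24). The adjusted p was 1.00 for each gene named from the lists in liver (edgeR).

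The counts in the further lists in liver are likewise a description, beside the median of 0.012 over all tested genes. Below 0 were 9 of 11 translation factors, 12 of 15 tRNA and rRNA enzymes, 57 of 78 ribosomal proteins and 2 of 4 amidotransferase and formylase genes. Of 14 ATF4 targets, 9 were above 0. *Gatc* was at 0.50 and *Qrsl1* at -0.61 among the amidotransferase genes, *Oxa1l* at 0.28 and *Gfm1* at -0.39 among the translation factors, and *Mrm1* at 0.34 and *Nsun3* at -0.72 among the tRNA and rRNA enzymes. The ribosomal proteins ranged from *Mrps10* at -0.64 to *Mrps15* at 0.48, and the ATF4 targets from *Fgf21* at -0.77 (SE 1.31) to *Chac1* at 1.20 (SE 0.83). All 13 mitochondrial mRNAs were above 0, from *mt-Co3* at 0.22 to *mt-Atp6* at 2.79 (SE 1.24). For *mt-Atp6* 1 library decided the value: RepB-/- replicate 3 held 449755 counts against at most 37252 in the others. Without that library the log2 fold change was -0.045 for *mt-Atp6* and 0.054 for *mt-Co3*. The same library held 19.3% of its counts on mitochondrial mRNAs, against 5.34% to 7.002% elsewhere in liver. Its part in the other mitochondrial mRNAs was not tested.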

How the data were processed

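RNA-seq counts of 12 libraries, 3 RepB-/- and 3 WT of MEFs and of liver, were analysed; other assays and brain were not analysed here. Genotypes were read from the letters B (RepB-/-) and W (WT) of the sample titles. Per its methods, the authors used Cutadapt for trimming and Hisat2 for alignment, while the submitters' processing notes name Trim Galore 0.4.1, STAR 2.7.0 and HTSeq 0.12.4, and the tool behind each table is not given in the sources used here. Both deposited tables hold whole-number counts per gene, not normalized, with GRCm39 coordinates for MEFs and GRCm38 for liver. A further 18 per-library columns and the authors' own fold changes and p-values were not used.

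Each table was fitted alone with edgeR 4.0.16 in R 4.3.3 (TMM factors, filterByExpr, quasi-likelihood test, Benjamini-Hochberg adjustment over all tested genes, threshold 0.05), tested on simulated data beforehand. Depth was 11540344 to 20587556 counts per MEF library and 37682201 to 51542709 per liver library. CPM used TMM-scaled library sizes, log2 CPM a prior count of 2, and RPKM the exon length of the MEF table and of GENCODE M21. Transcripts were aligned with blastn 2.17.0. *Ddit3* has a second row in the MEF table, with 0 counts.

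The genes and lists were chosen with earlier results of these data known. Genes named beyond the 9 were those listed for ribosomal RNA, up to 2 of the largest rises and falls per list or its extremes where none passed, the 2 nearest protein-coding neighbours on each side, and the 5 nearest patterns. Same-numbered libraries of liver deviated together (correlations of 0.71, 0.36 and 0.37), but libraries 2 and 3 correlated best with each other's number. A pairing by number is thus not established, and paired values are given as an alternative. Same-numbered libraries of MEFs did not deviate together (-0.0099, -0.044 and 0.00053). Alternatives were DESeq2 1.42.0, its size factors in edgeR, no filter, library sizes without *Lars2* and ribosomal RNA genes, a replicate block, and leaving out libraries.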

Additional observations from a re-analysis of the deposited data

How the results depend on the processing

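*Lars2* in MEFs kept its direction under every alternative tried. Its log2 fold change was -3.73 with either set of size factors, -3.72 with DESeq2, -3.69 without a filter, -3.12 with the replicate block, -4.26 to -3.18 with single libraries left out, and -0.39 without WT replicates 2 and 3. The number of the 9 genes called in MEFs was 2 or 3, and that of liver was 0 throughout; the numbers of the pathway lists in MEFs were 35 with DESeq2, 42 with the replicate block and 23 to 42 with single libraries left out, the lowest without RepB-/- replicate 2. The block by replicate number changed no call of the 9 genes.

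Some directions turned. In MEFs *Pars2* was at -0.13 without WT replicates 2 and 3, and it ranged from -0.024 to 0.21 with single libraries left out. In liver, the ranges with single libraries left out crossed 0 for *Fars2* (-0.025 to 0.20), *Pars2* (-0.47 to 0.12), *Sars2* (-0.17 to 0.11), *Sars* (-0.066 to 0.25), *Gars* (-0.16 to 0.0100), *Gatc* (-0.20 to 0.82), *Sacm1l* (-0.33 to 0.063), *Tmem158* (-0.56 to 1.24), *mt-Atp6* (-0.045 to 3.31) and *Fgf21* (-1.28 to 2.01). With the block and without both libraries of replicate 2, *Fars2* was at -0.066, *Sars* at -0.038, *Chac1* at -0.11 and *Sacm1l* at 0.075. With the block and without both libraries of replicate 1, *Sars2* was at 0.15, *Fgf21* at 1.04 and *Pars2* at 0.0045. The cause was not tested. With 3 libraries a group, the exact test of the liver share cannot go below 0.1, nor its paired form below 0.25, at the same difference of -2.48.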
